A study of Mus musculus with 8 samples.

Results

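In this series, 10 cadherin genes of neurons were examined in cultured mouse neurons with and without Nuak1, the gene of an AMPK-related kinase. They were taken by name (Cdh2, Cdh4, Cdh6, Cdh7, Cdh8, Cdh9, Cdh10, Cdh11, Cdh12 and Cdh13), and each symbol mapped to 1 Ensembl identifier, so that 10 of the 32726 identifiers in the count table were kept. The data comprised 4 libraries from Nuak1 knockout animals (KO1 to KO4) and 4 from wild-type animals (WT1 to WT4), all of poly-A RNA collected after 5 days in vitro. The knockout was constitutive, hence not restricted to neurons, the mice were on a C57Bl/6JRj background, and each genotype was represented by 4 animals. Whether animals shared a litter is not given, so the p-values measure the spread between these libraries. The labels also carry a strain name, not explained there, which is BJ for KO1, KO2 and KO3, BK for KO4, WT2 and WT4, BO for WT1 and BQ for WT3, so that strain name and genotype can be compared within BK alone. The allele of the knockout animals and the age and sex of single animals are not given in the labels. The methods describe cortical neurons isolated from embryos, whereas each library carries the tissue label "cortex or hippocampus".

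Cadherins are single-pass adhesion proteins that bind each other across the cell gap in a calcium-dependent manner. Classical cadherins of type I, such as Cdh2 and Cdh4, and the more diverse type II cadherins (Cdh6 to Cdh12) hold catenins on their cytoplasmic tail, and the catenins tie the adhesive complex to actin. In the developing brain the combinations in which they are expressed differ between areas, layers and cell types, and several of them act in axon growth, target recognition and synapse formation. Cdh13 (T-cadherin) stands apart from the classical group, since a lipid anchor holds it to the membrane and it has no catenin-binding tail.

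In short, the 7 type II cadherins among the 10 genes had lower fitted levels in KO than in WT. Of them, 5 were past the fold and p thresholds of the study, where 3.53% of all genes were lower. Cdh4, Cdh9 and Cdh13 differed by less than 1 SE. The 10 genes were chosen with earlier results of these data known, and Cdh24, a further type II gene, was higher in KO. None of the 10 genes passed the threshold adjusted over all genes, and the calls depended on single libraries. Abundance is given as CPM, the count scaled to a common library total, and the log2 fold change is that of KO against WT from edgeR with 1 surrogate variable, a term for unwanted variation estimated from the data. The lower study threshold is an absolute log2 fold change above 0.25 with p under 0.05, and the stricter one takes p under 0.01. Both are applied here to the unadjusted p of edgeR, whereas the study worked with DESeq2 and weighted p-values, so the genes called here need not be those of the study.

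Promoter sequence is shown for 3 type II genes on account of the results that follow: Cdh12, with the largest difference and no overlap between genotypes, Cdh8, with the next largest difference, and Cdh9, with almost none. Each window runs from 250 bases before to 50 bases after a RefSeq start site (GRCm38.p6), 5′ to 3′ on the strand of the gene. Of the 10 genes, 6 had such a window. Capitals mark the letters CANNTG, the E-box core, which reads alike on both strands and is the letter pattern bound by basic helix-loop-helix factors such as the NEUROD family.
Cdh12: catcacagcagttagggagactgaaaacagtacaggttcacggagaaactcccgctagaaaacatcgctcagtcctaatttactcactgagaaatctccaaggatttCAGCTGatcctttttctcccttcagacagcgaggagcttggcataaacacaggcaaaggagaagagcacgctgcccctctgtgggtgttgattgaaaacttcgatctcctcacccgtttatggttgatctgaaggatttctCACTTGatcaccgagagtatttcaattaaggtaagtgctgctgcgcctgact
Cdh8: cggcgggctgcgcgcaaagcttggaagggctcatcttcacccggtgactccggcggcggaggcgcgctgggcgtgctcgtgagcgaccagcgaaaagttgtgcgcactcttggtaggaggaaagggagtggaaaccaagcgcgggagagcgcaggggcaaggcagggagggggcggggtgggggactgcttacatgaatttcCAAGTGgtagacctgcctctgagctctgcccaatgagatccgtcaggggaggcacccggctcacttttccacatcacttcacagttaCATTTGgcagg
Cdh9: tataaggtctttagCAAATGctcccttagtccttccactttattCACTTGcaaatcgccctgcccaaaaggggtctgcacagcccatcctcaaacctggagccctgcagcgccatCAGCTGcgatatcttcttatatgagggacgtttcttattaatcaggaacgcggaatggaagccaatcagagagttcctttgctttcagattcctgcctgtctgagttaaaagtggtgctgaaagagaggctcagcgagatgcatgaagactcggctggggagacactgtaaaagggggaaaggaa
These windows lie at chr15:21111202-21111501 (Cdh12, plus strand), chr8:99416422-99416721 (Cdh8, minus strand) and chr15:16728665-16728964 (Cdh9, plus strand). Each start site lies inside the span given for its gene below, and for Cdh12 far inside it, so that other starts of these genes are not covered. Cdh12 and Cdh8 held 2 E-box cores each and Cdh9 held 3. Of 32851 windows of this length, 72.3% held at least 1, 39.6% at least 2 and 17.6% at least 3, so that the pattern is common. The Cdh8 window was rich in CG pairs, with 21 against a median of 7 over all windows, while Cdh12 had 9 and Cdh9 had 8. A match in letters is a description of the sequence and does not show binding.

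Library totals ran from 31247078 to 67155004 counts. Nuak1 itself, as a check of the labels, lay between 1.96 and 2.72 CPM in KO and between 51.6 and 82.6 CPM in WT (log2 fold change −4.89, SE 0.13, adjusted p 1.24e-07, edgeR). Neuronal markers were present in all libraries, with Map2, a dendritic microtubule protein, at 2827 to 3877 CPM and Neurod6, a marker of cortical glutamatergic neurons, at 242 to 339 CPM. Some were less even, as Tubb3, also pan-neuronal, ran from 252 CPM in WT1 and 299 CPM in KO1 to 1342 CPM in KO4. Markers of other cells were present as well, among them Slc1a3 (astrocytes and radial glia) at 397 to 692 CPM and Pdgfra (oligodendrocyte precursors) at 248 to 432 CPM. In such bulk libraries, fewer cells of a type and less RNA per cell cannot be told apart, and a cadherin transcript cannot be traced to a cell type. KO1 and WT1 stood apart from the other libraries in the surrogate variable, at −0.558 and −0.621 against 0.048 to 0.392. The fold changes are therefore also given without this pair. Lane A held KO1 and KO4 with WT1 and WT3, and lane B the remaining libraries.

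The cadherins differed widely in level. Per kilobase of exon length (older GENCODE annotation on NCBIM37, lengths only), Cdh6 had the highest median over the 8 libraries, at 57.6 CPM per kb with a range of 46.2 to 78.5. Cdh13 followed at a median of 51.6 (35.5 to 62.4) and Cdh2, N-cadherin, the main classical cadherin of neural tissue, at 47.1 (35.5 to 56.5). The ranges of these 3 genes overlapped, and Cdh6 lay above Cdh13 in 5 of 8 libraries, as did Cdh13 above Cdh2. Cdh11 came next at 31.1 CPM per kb and Cdh10 at 22.0, each below the gene before it in all 8 libraries. A lower tier was formed by Cdh4 at 11.9, Cdh8 at 6.08 and Cdh9 at 5.72 CPM per kb, of which the last pair were not ordered, Cdh8 being above Cdh9 in 4 of 8 libraries. Cdh7 and Cdh12 were the lowest, with medians of 1.42 and 1.03 CPM per kb and overlapping ranges. These levels depend on the exon length used. Per kilobase of coding length, Cdh13 came first (268 CPM per kb), next Cdh2 (140) then Cdh6 (63.9), and the order of the other 7 genes was the same.

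**Figure D1:**
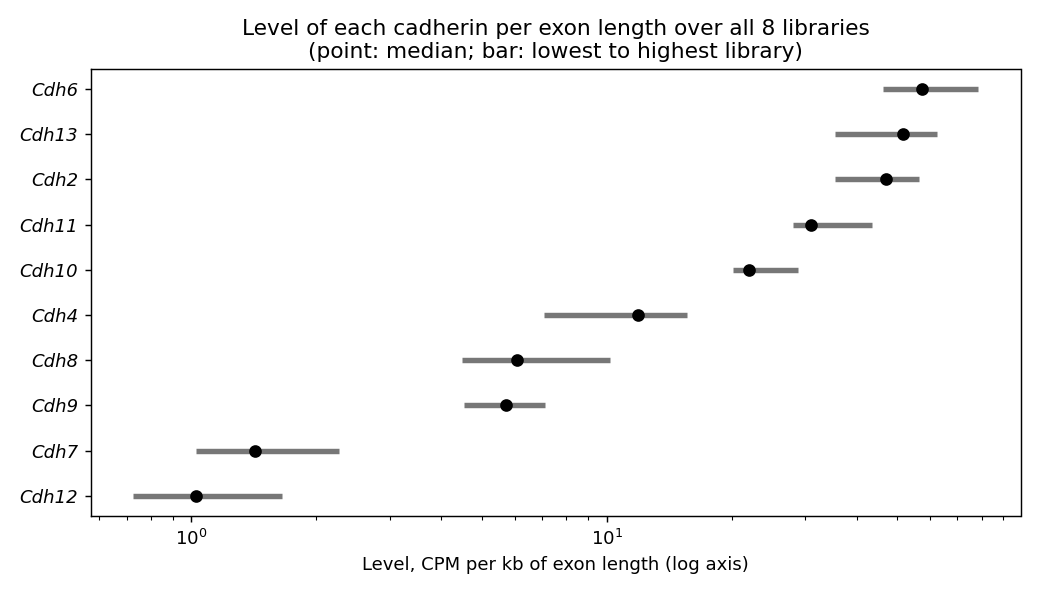
Level of each cadherin in CPM per kb of exon length, on a log axis, with the median of all 8 libraries (point) and the range from the lowest to the highest library (bar). Cdh6, Cdh13 and Cdh2 overlap at the top, from 35.5 to 78.5, and Cdh7 and Cdh12 lie lowest, from 0.723 to 2.27.

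Among the type II genes, Cdh12 (Br-cadherin, named for brain; ENSMUSG00000040452, GRCm38 chromosome 15, 20448878 to 21598421) had the largest difference between genotypes. It was measured at 5.06, 5.72, 5.08 and 4.08 CPM in KO1 to KO4 and at 8.10, 7.36, 9.29 and 5.84 CPM in WT1 to WT4, from 165 to 494 counts. All 4 KO libraries were below all 4 WT libraries, although KO2 and WT4 were close to each other. The KO mean was 4.99 ± 0.679 CPM and the WT mean 7.65 ± 1.44 CPM (SD, n = 4 each). The log2 fold change was −0.66 (SE 0.16, edgeR adjusted p 0.271), a difference of −36.7%, and the gene ranked 143 by p. It was the 1 gene of the 10 without overlap, against 0.86% of all tested genes with KO wholly below WT.

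Cdh8 (ENSMUSG00000036510, chromosome 8, 99024471 to 99417666), a type II cadherin known for its restricted expression in cortical areas and layers, was measured at 51.0, 39.7, 34.6 and 43.1 CPM in KO1 to KO4 and at 78.8, 55.3, 68.0 and 39.5 CPM in WT1 to WT4. WT4 lay within the KO range and the other 3 WT libraries above it. The log2 fold change was −0.57 (SE 0.18, edgeR adjusted p 0.369). When the strain name of the animals entered the model in place of the surrogate variable, so that KO4 was set against WT2 and WT4 of one name, the value was −0.16 (SE 0.32, edgeR adjusted p 1.0). With strain in the model Cdh12 was at −0.72, Cdh11 at −0.39, Cdh6 at −0.30, Cdh10 at −0.29, Cdh7 at −0.21, Cdh9 at −0.18, Cdh2 at −0.12, Cdh13 at 0.0048 and Cdh4 at 0.22. Without WT4 the Cdh8 value was −0.72. Over 21 alternatives its adjusted p ranged from 0.0604 to 1.0 (edgeR or DESeq2).

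Cdh11 (OB-cadherin, first described in osteoblasts; ENSMUSG00000031673, chromosome 8, 102632095 to 102785493) had 128, 131, 131 and 119 CPM in KO1 to KO4 and 184, 157, 123 and 151 CPM in WT1 to WT4. The KO values were tight, and WT3 alone among the WT libraries lay among them. Its log2 fold change was −0.30 (SE 0.088, edgeR adjusted p 0.334). Cdh10 (ENSMUSG00000022321, chromosome 15, 18818869 to 19016206) was measured at 80.1, 75.8, 74.6 and 74.4 CPM in KO1 to KO4 and 103, 92.7, 71.4 and 86.7 CPM in WT1 to WT4. WT3 was the lowest of all 8 libraries and the other WT libraries were above every KO library, giving a log2 fold change of −0.25 (SE 0.083, edgeR adjusted p 0.367).

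Cdh6 (K-cadherin; ENSMUSG00000039385, chromosome 15, 13028699 to 13176407) was measured at 166, 133, 124 and 138 CPM in KO1 to KO4 and at 207, 169, 122 and 167 CPM in WT1 to WT4. Here WT3 was again the lowest library, and the other WT libraries were above all KO libraries, with KO1 close to WT4 and WT2. The log2 fold change was −0.29 (SE 0.094, edgeR adjusted p 0.366). Cdh7 (ENSMUSG00000026312, chromosome 1, 109982237 to 110145272) had 11.4, 10.8, 11.3 and 13.3 CPM in KO1 to KO4 and 19.7, 14.1, 8.92 and 16.5 CPM in WT1 to WT4. WT3 was the lowest and WT1 the highest of all libraries, and the WT spread was wide (SD 4.54 CPM against 1.11 CPM in KO). The log2 fold change of Cdh7 was −0.35 (SE 0.19, edgeR adjusted p 0.545), and the gene did not pass the lower study threshold.

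Cdh9 (ENSMUSG00000025370, chromosome 15, 16728550 to 16857138), which takes part in the specification of hippocampal mossy fibre synapses, had 20.6, 15.2, 17.5 and 13.1 CPM in KO1 to KO4 and 16.7, 13.2, 19.3 and 16.4 CPM in WT1 to WT4. The genotypes overlapped throughout and the means were 16.6 ± 3.20 and 16.4 ± 2.51 CPM (SD, n = 4 each). Its log2 fold change was −0.031 (SE 0.14, edgeR adjusted p 0.956), and it turned positive with 2 surrogate variables, on lane B and without KO2, KO4 or WT3.

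**Figure D2:**
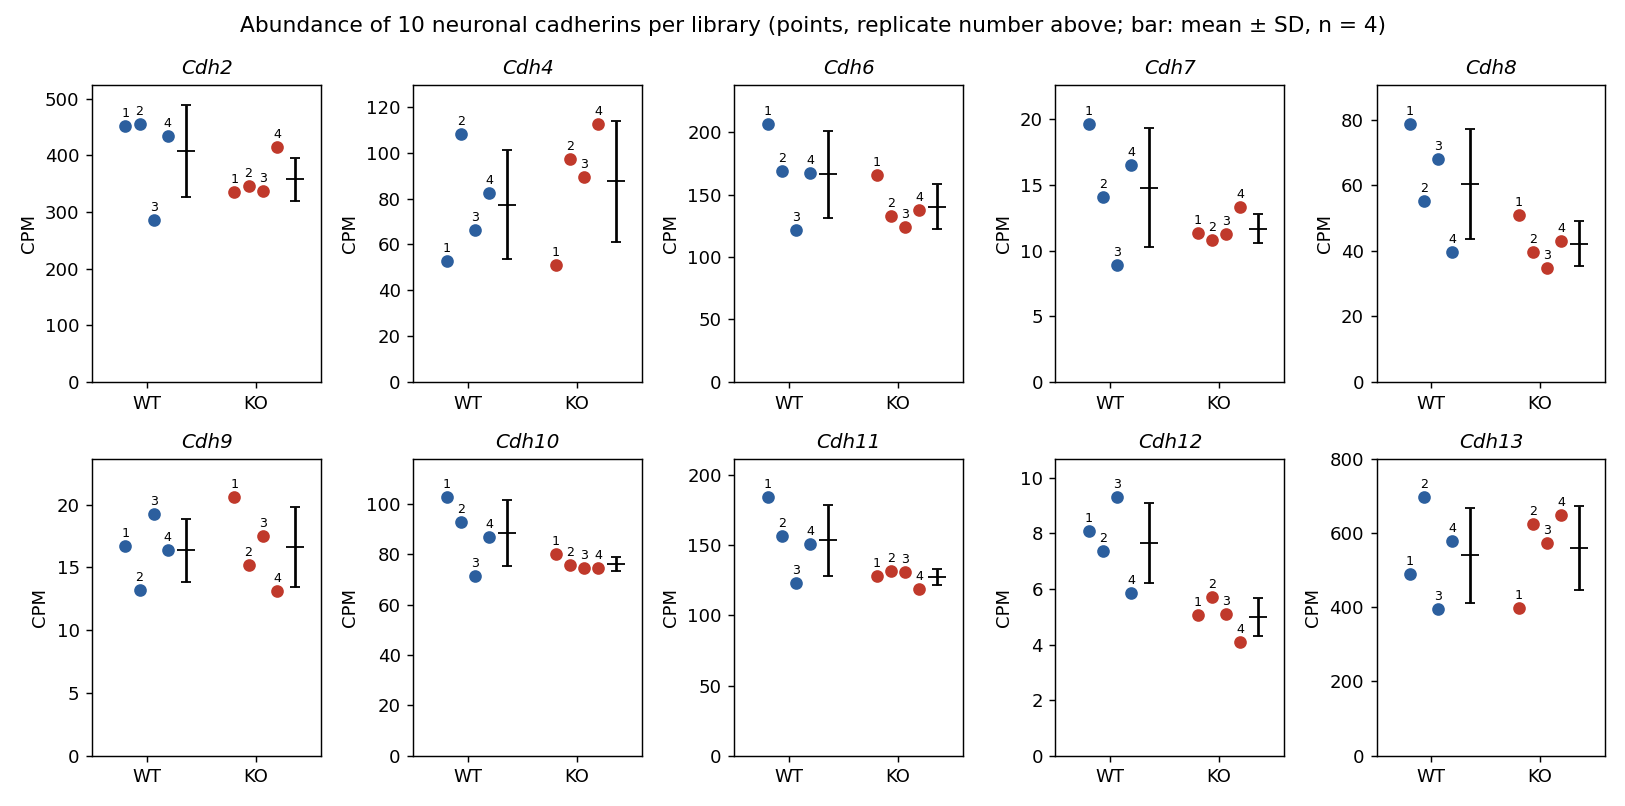
Abundance in CPM of the 10 cadherins in each WT and KO library (points, with the replicate number above), with the mean and SD of each genotype beside them (n = 4). Cdh12 has every KO library below every WT library, and in Cdh2, Cdh6, Cdh7, Cdh10 and Cdh11 the WT3 point lies at or near the bottom.

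The type I genes and Cdh13 were not past the study thresholds. Cdh2 (ENSMUSG00000024304, chromosome 18, 16588877 to 16809246) was measured at 335, 346, 336 and 415 CPM in KO1 to KO4 and at 452, 456, 286 and 433 CPM in WT1 to WT4. WT1, WT2 and WT4 were above all KO libraries, whereas WT3 was below all of them, an arrangement shared with Cdh6, Cdh7 and Cdh10. The log2 fold change was −0.22 (SE 0.16, edgeR adjusted p 0.644). Cdh4 (R-cadherin, known from the retina; ENSMUSG00000000305, chromosome 2, 179442423 to 179899377) had 50.9, 97.2, 89.4 and 113 CPM in KO1 to KO4 and 52.7, 108, 66.5 and 82.3 CPM in WT1 to WT4. KO1 and WT1 were the lowest libraries of their genotype, and the log2 fold change was 0.13 (SE 0.20, edgeR adjusted p 0.847). Its direction turned on lane B, at −0.11, and without WT3, at −0.044.

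Cdh13 (ENSMUSG00000031841, chromosome 8, 118140017 to 119324929) had 398, 623, 572 and 648 CPM in KO1 to KO4 and 491, 696, 396 and 579 CPM in WT1 to WT4. KO1, WT3 and WT1 were the low libraries, which are of both genotypes, and the log2 fold change was 0.00071 (SE 0.20, edgeR adjusted p 0.999). It was negative in 10 of 21 alternatives, so no direction can be given. With standard errors of about 0.20, a modest difference in Cdh4 or Cdh13 was not detectable in these libraries.

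Across the 10 genes, 8 had a lower and 2 a higher fitted level in KO, with a median log2 fold change of −0.27, while the median of all 16272 tested genes was 0.015. All 10 passed the filter on low counts. By the adjusted threshold 0 of 10 passed, where 0.0492% of all genes did (edgeR). Past the lower study threshold 5 of 10 were lower in KO, namely Cdh6, Cdh8, Cdh10, Cdh11 and Cdh12, and 3.53% of all genes were. Past the stricter threshold 2 of 10 were lower, Cdh11 and Cdh12, against 1.48% of all genes. Leaving out 1 library in turn, 7 genes were past the lower threshold without WT3 and 2 without WT1 (Cdh6 and Cdh12). Cdh10 and Cdh11 were lost without KO1, Cdh10 without KO2, and Cdh6 and Cdh10 without WT2. The 7 type II genes had a median of −0.30 and summed to between 398 and 462 CPM in KO and between 421 and 617 CPM in WT. The summed ranges overlapped through WT3, at 421 CPM. Markers of other cells also differed in places. Of the microglia markers, 8 were tested and 7 were higher in KO (median log2 fold change 1.38), with summed levels of 3.88 to 47.6 CPM in KO against 4.38 to 20.4 CPM in WT, and 0 were past the study threshold. Of the 10 interneuron markers 7 were higher (median 0.25), with sums of 232 to 365 CPM in KO against 204 to 335 CPM in WT, and Calb2 was past the threshold at 0.66 (edgeR adjusted p 0.312). Among 10 glutamatergic markers 5 were higher and 5 lower (median 0.023), with Slc17a7, a vesicular glutamate transporter, past the threshold at −0.32 (edgeR adjusted p 0.389). Of the 9 astrocyte markers 7 were higher (median 0.076), and Gfap spread from 7.12 to 235 CPM in KO and from 9.90 to 56.7 CPM in WT. The part of these cells in the cadherin differences was not tested. These counts describe the chosen genes and carry no test of the group as a whole.

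**Figure D3:**
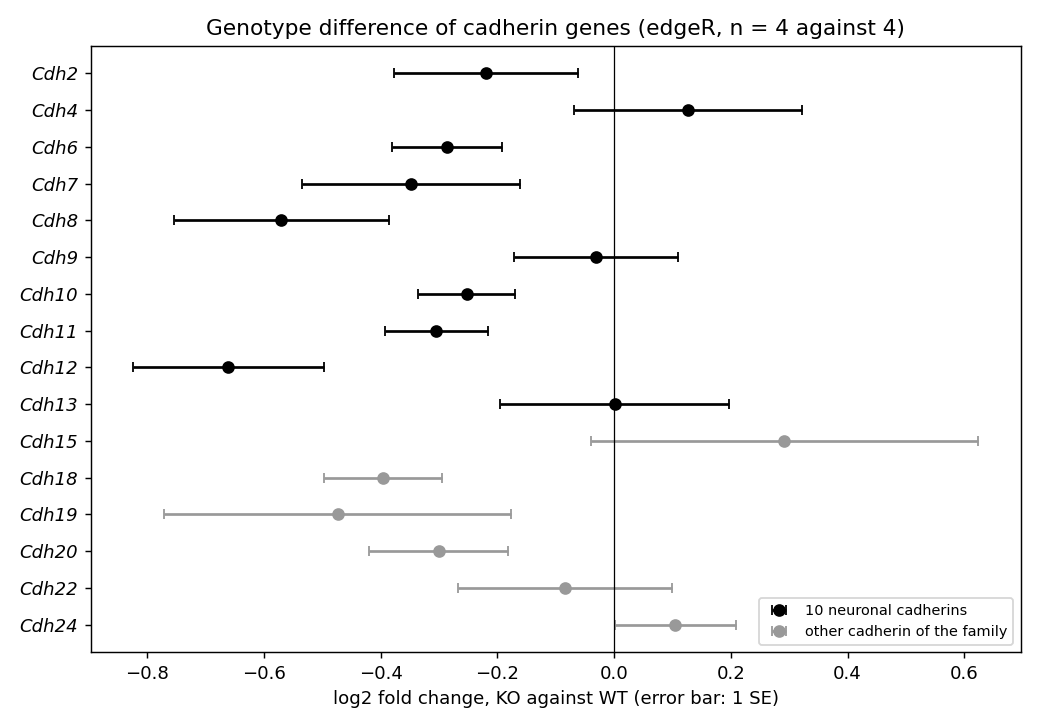
The log2 fold change of KO against WT (edgeR, 4 libraries of each genotype) with 1 SE on each side, for the 10 neuronal cadherins (black) and 6 other tested cadherins (grey). The 7 type II genes Cdh6 to Cdh12 lie left of 0, from −0.66 to −0.031, and Cdh18 lies at −0.40.

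At the adjusted and stricter thresholds, the number of genes called moved most with WT3. At the lower study threshold it moved most with WT1. Among the 4 WT libraries WT3 had the lowest level of Cdh2, Cdh6, Cdh7, Cdh10, Cdh11 and Cdh13, but the highest level of Cdh9 and Cdh12. When each library was left out in turn, the fit without WT3 gave the most calls. Without it 3 of 10 genes passed the adjusted threshold, all lower in KO: Cdh11 (log2 fold change −0.39, adjusted p 0.0375, edgeR), Cdh6 (−0.38, adjusted p 0.0460, edgeR) and Cdh10 (−0.33, adjusted p 0.0465, edgeR). The share of all genes lower in KO in that fit was 0.432%. Over all alternatives the adjusted p of these 3 genes went up to 1.0 (edgeR or DESeq2). Past the lower study threshold 7 of 10 genes were lower without WT3, now with Cdh2 (−0.37) and Cdh7 (−0.53), against 4.77% of all genes. Other libraries moved both genes the other way, since Cdh2 was at −0.12 without KO1 or without WT2 and Cdh7 at −0.18 without KO1. Every KO library was below every remaining WT library in 6 of 10 genes (Cdh2, Cdh6, Cdh7, Cdh10, Cdh11 and Cdh12), where 2.39% of all genes were.

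WT3 also had the lowest summed level of progenitor markers, at 182 CPM against 284 to 387 CPM in the other 7 libraries, with Mki67, a proliferation marker, at 26.1 CPM against 60.7 to 109 CPM. Its summed meningeal fibroblast and mural markers were at 9.08 CPM against 19.6 to 50.2 CPM, and its astrocyte markers at 911 CPM, above KO4 at 877 CPM and below the other libraries at 1217 to 1711 CPM. For these cells too, the part in the cadherin values was not tested.

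**Figure D4:**
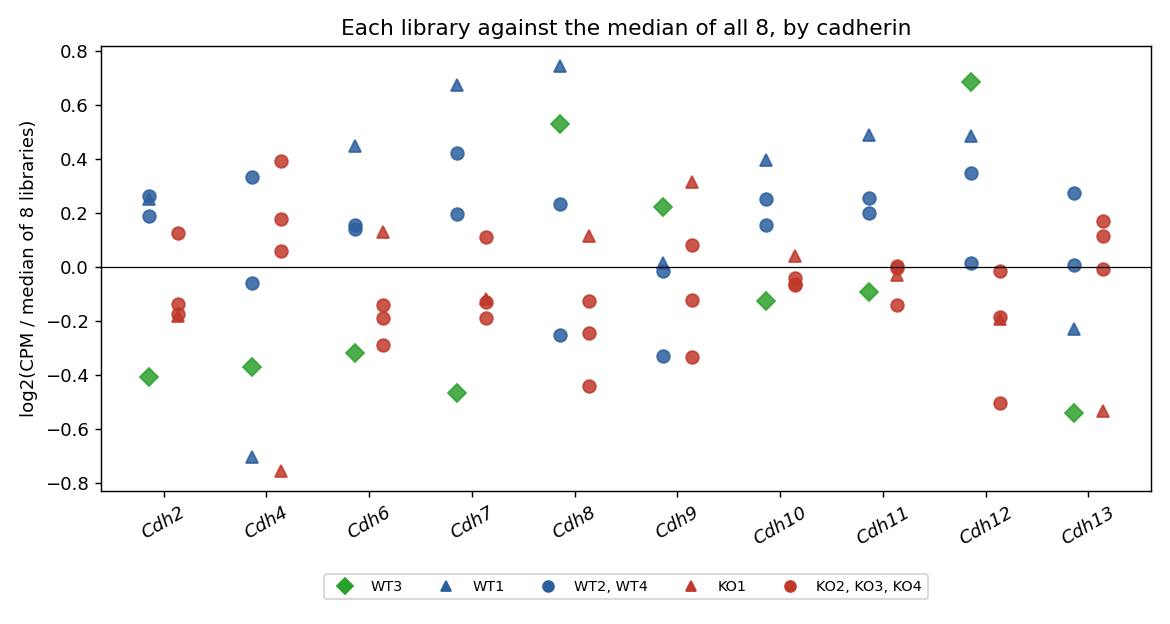
The log2 ratio of each library's CPM to the median of all 8 libraries, for each cadherin, with WT libraries left and KO libraries right of each tick. WT3 (green diamonds) lies below most libraries for Cdh2, Cdh6, Cdh7 and Cdh13 and highest for Cdh12, and KO1 and WT1 (triangles) lie lowest for Cdh4.

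Within lanes, fitted on genotype alone without a surrogate variable, the lower level in KO was spread differently over the genes. On lane A the log2 fold change was −0.95 for Cdh12 and −0.67 for Cdh8, and −0.34 for Cdh11, −0.25 for Cdh7, −0.20 for Cdh10, −0.15 for Cdh6 and −0.0063 for Cdh2. Cdh9 was at −0.11 on that lane, whereas Cdh4 was higher in KO at 0.44 and Cdh13 at 0.22. On lane B the log2 fold change was −0.53 for Cdh7, −0.45 for both Cdh6 and Cdh2, −0.43 for Cdh8, −0.37 for Cdh12, −0.32 for Cdh10 and −0.30 for Cdh11. There Cdh13 was at −0.16, Cdh4 at −0.11 and Cdh9 at 0.091. Whether the lanes differ in their genotype effect was not tested. On lane B 1 of 10 genes passed the adjusted threshold, Cdh6 (adjusted p 0.0360, edgeR), where 0.327% of all genes were called lower, and on lane A 0 of 10 did. On lane A 0 of 16238 genes passed it (edgeR), Nuak1 included, and 96 had an unadjusted p under 0.05. Past the lower study threshold on that lane, 2 of 10 were lower in KO, Cdh8 and Cdh12, against 0.462% of all genes. On lane B 5 of 10 were, against 4.53% of all genes, and these were Cdh2, Cdh6, Cdh7, Cdh10 and Cdh11, none of them called on lane A. DESeq2 with the same surrogate variable called 1 of 10, Cdh12 (adjusted p 0.0221, DESeq2), where 0.86% of all genes were called lower, and its adjusted p in the edgeR alternatives went up to 1.0.

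Leaving out KO1 and WT1 together, in a fit without a surrogate variable, gave log2 fold changes of −0.64 for Cdh12, −0.51 for Cdh8, −0.25 for Cdh6, −0.21 for Cdh11 and −0.19 for both Cdh10 and Cdh7. Cdh2 was at −0.14, Cdh9 at −0.12, Cdh13 at 0.10 and Cdh4 at 0.18. Past the lower study threshold 2 of 10 genes, Cdh8 and Cdh12, were then called, against 2.03% of all genes lower in KO. Cdh2, Cdh6, Cdh7, Cdh8, Cdh10, Cdh11 and Cdh12 were lower in KO under all 21 alternatives. Past the lower study threshold, Cdh12 was called in 20 of the 21, Cdh8 in 18, Cdh11 in 16, Cdh6 in 15 and Cdh10 in 10. Cdh12 was not called on lane B.

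**Figure D5:**
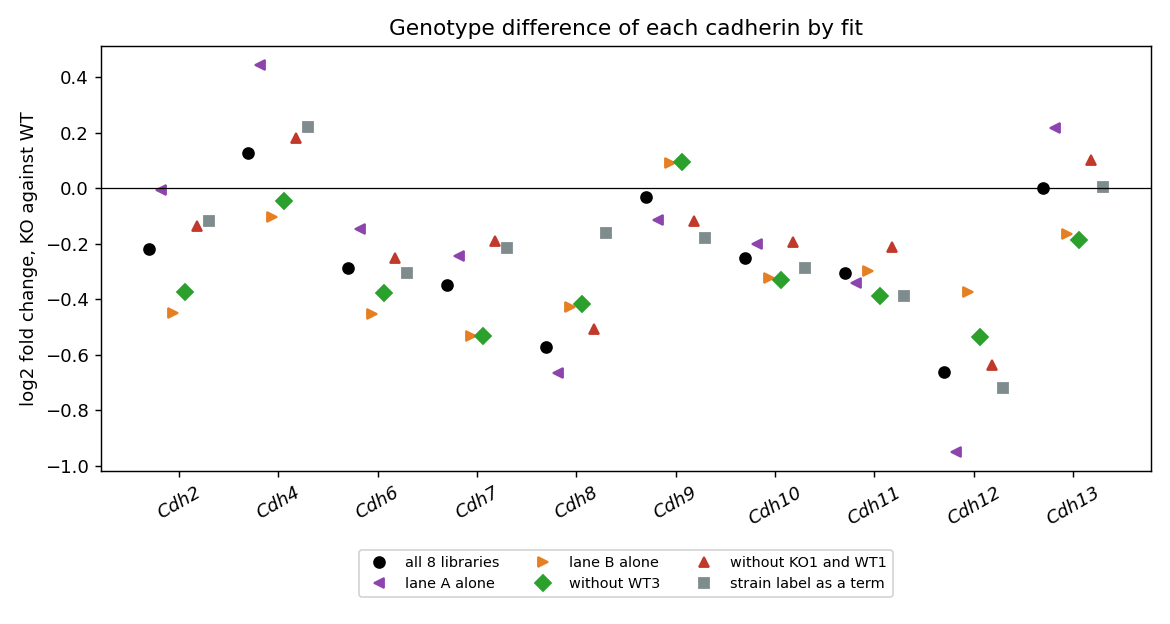
The log2 fold change of KO against WT for each cadherin with all 8 libraries, on each lane alone, without WT3, without KO1 and WT1, and with strain as a term. The lane, strain and KO1-WT1 fits have no surrogate variable, and Cdh2, Cdh6, Cdh7, Cdh8, Cdh10, Cdh11 and Cdh12 stay below 0 in every fit drawn, whereas Cdh4, Cdh9 and Cdh13 lie on both sides of 0.

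Further cadherins of the family were read to place the 10 genes. Of 12 listed, 11 had an identifier and 6 were tested, with 4 lower and 2 higher in KO, a median log2 fold change of −0.19 and 0 past the adjusted threshold. Cdh18, another type II gene (ENSMUSG00000040420, chromosome 15, 22548898 to 23477491), had 15.2, 15.2, 13.9 and 16.1 CPM in KO1 to KO4 and 24.8, 16.6, 17.9 and 18.8 CPM in WT1 to WT4. The genotypes did not overlap and the log2 fold change was −0.40 (SE 0.10, edgeR adjusted p 0.282). With strain in the model it was −0.15. Cdh20, also of type II, ranged from 17.9 to 25.5 CPM in KO and from 22.6 to 29.4 CPM in WT, with overlap, and its fold change was −0.30 (SE 0.12, edgeR adjusted p 0.425), or −0.49 with strain in the model. Both were past the lower study threshold with 1 surrogate variable, but neither was with strain in the model. Cdh20 was also not past it without a surrogate variable, with 2 surrogate variables or with lane as a term. The same held for Cdh20 on either lane and without KO3, KO4, WT2 or WT3, and for Cdh18 on lane A. Cdh24 (0.10), Cdh22 (−0.084) and Cdh19 (−0.47), which are of type II as well, did not pass it with 1 surrogate variable. Nor did the muscle cadherin Cdh15 (0.29). Of the type II genes, Cdh24 was higher in KO, so that not every type II gene tested was lower. The cadherins of epithelia and vessels were nearly missing, as Cdh1 (E-cadherin) had 0 to 2 counts, Cdh3 (P-cadherin) 0 to 4 counts and Cdh5 (VE-cadherin) 0 to 5 counts per library.

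The catenins, through which classical cadherins act on actin, gave no such pattern. All 9 listed were tested, with 8 higher and 1 lower in KO, a median log2 fold change of 0.065 and 0 past either threshold or at an unadjusted p under 0.05 (edgeR). Ctnnb1 (β-catenin) ranged from 682 to 817 CPM in KO and from 635 to 804 CPM in WT, and differed by 0.033 (SE 0.090, edgeR adjusted p 0.923). Ctnna2 (αN-catenin, the neuronal α-catenin) was at 0.031 (SE 0.063, edgeR adjusted p 0.888) and Ctnnd2 (δ-catenin, of the p120 class) at 0.074 (SE 0.067, edgeR adjusted p 0.717). Among 17 junction partners and enzymes that cut cadherins, 15 were lower and 2 higher in KO with a median of −0.089, and 0 passed either threshold (edgeR).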

How the data were processed

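The authors deposited unnormalized counts for each Ensembl gene, obtained with Cutadapt 1.10, STAR 2.5.3a on mm10 and HTSeq-count 0.6.1p1 in union mode on uniquely aligned reads. Ribosomal RNA reads had been discarded and replicates were not pooled. Whether counting used strand is not stated, and reads shared with an overlapping gene are then uncertain. By their RefSeq spans, 4 genes overlap Cdh8, Cdh12 and Cdh13 each, 2 overlap Cdh4 and Cdh6 each, and 1 overlaps Cdh10. Of these, only Acot10, at Cdh12, is protein-coding. Genotype and replicate number came from the labels.

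The test was run in edgeR 4.0.16 (R 4.3.3) with filterByExpr by genotype, TMM scaling, 1 surrogate variable (svaseq, sva 3.50.0, at most 2 allowed) and a robust quasi-likelihood F test of genotype across all genes, with Benjamini-Hochberg adjustment and a threshold of 0.05. The SE was derived from the fold change and F. The study tested with DESeq2 and surrogate variables, and DESeq2 1.42.0 served here as an alternative. In a simulation of the genotype comparison on 16272 genes, 96.5% of 200 genes given a log2 fold change of 1 were recovered. That change was larger in size than the fitted change of any cadherin examined, the largest being −0.66 for Cdh12. The share recovered therefore does not tell how often differences as small as those of the cadherins would be found. Symbols were matched for 23260 identifiers and GRCm38 positions for 20916, and where 2 identifiers shared a symbol the one with the higher mean count was used.

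The 10 genes and the lists were chosen with earlier results of these data known. All 10 genes were named, with Nuak1, listed partners past a threshold (up to 5 a list, by p), the most abundant catenins by class and the leading markers. Lists are described by counts and medians only. Alternatives were other numbers of surrogate variables, lane or strain label as a term in place of the surrogate variable, replicate number as a term with or without it, other size factors and filters, DESeq2, each lane alone without a surrogate variable, and fits without single libraries or, with no surrogate variable, without KO1 and WT1. No library duplicated another (lowest chi-square per degree of freedom 20.5).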

Additional observations from a re-analysis of the deposited data

Results flagged for a closer look

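A library was marked where its gap to the nearest library of its genotype, relative to the range of the 4 libraries, was too large by Dixon's test for 4 values. Chance marks about 1 in 20 groups, and 2 of the 20 tested here were marked. Both concern Cdh2. In WT3 it was measured at 286 CPM, with 433 CPM in the next lowest and 456 CPM in the highest WT library. In KO4 it was measured at 415 CPM, with 346 CPM in the next highest and 335 CPM in the lowest KO library. The cause of either value was not tested.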

How the results depend on the processing

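Over 21 alternatives, Cdh2, Cdh6, Cdh7, Cdh8, Cdh10, Cdh11 and Cdh12 kept a negative log2 fold change. Of the 10 cadherins, 0 passed the adjusted threshold (edgeR), and 1 did on lane B and 1 with DESeq2, and 0 to 3 when single libraries were left out. Past the lower study threshold 5 were called, but 3 without a surrogate variable, 2 with lane and 2 with strain as a term, each in place of the surrogate variable, 2 on lane A and 2 without KO1 and WT1, both also without a surrogate variable, and 2 to 7 when single libraries were left out. The genes lower past this threshold among all genes went from 574 to 259, 269, 232, 75 and 337 in the same order of fits, and to between 360 and 783 when single libraries were left out. Past the stricter threshold 2 were called, but 1 without a surrogate variable, 4 with 2 surrogate variables, 3 without a filter, 0 with strain as a term, 0 on lane A, 5 on lane B, 0 without KO1 and WT1, 5 with DESeq2, and 0 to 6 when single libraries were left out. The genes lower past it among all genes went from 241 to 52, 259, 359, 29, 6, 363, 80 and 329 in that order of fits, and to between 107 and 456 when single libraries were left out. Among all genes 8 passed the adjusted threshold, but 4 without a surrogate variable, 4 with 2, 4 with lane and 1 with strain as a term, 45 without a filter, 2 with at least 10 counts in every library, 0 on lane A (96 with a fold past 0.25 and an unadjusted p under 0.05), 99 on lane B, 3 without KO1 and WT1, 168 with DESeq2, and 3 to 91 when single libraries were left out. Nuak1 kept its call in all but the fit of lane A. Without overlap in CPM there was 1 cadherin, also after TMM scaling, where 0.86% of all genes had KO wholly below WT in CPM. When single libraries were left out (chosen after seeing the data) there were 1 to 6. Without WT3 there were 6, where 2.39% of all genes had KO wholly below WT, and without WT4 there were 2. The share of all genes was not counted after TMM scaling or without any other library, so those numbers cannot be set against it.

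Cdh4 turned to −0.11 on lane B and ranged from −0.044 to 0.30 when single libraries were left out. Cdh9 turned to 0.028 with 2 surrogate variables and 0.091 on lane B, and ranged from −0.14 to 0.094. Cdh13 turned to −0.10 with 2 surrogate variables, −0.0016 with the replicate block and the surrogate variable, −0.0034 with median-ratio size factors, −0.0090 without a filter, −0.00058 with at least 10 counts, −0.16 on lane B and −0.0045 with DESeq2, and ranged from −0.19 to 0.15. The causes were not tested.

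Samples of the same number did not deviate together in every pair (correlations 0.788, 0.009, 0.237 and −0.011 for numbers 1 to 4), so the number does not pair them. With the replicate block, 4 cadherins passed the lower study threshold and 1 the stricter, where 487 and 166 of all genes were lower, and with the surrogate variable as well 6 and 4, where 551 and 250 were. In both fits with the replicate block 3 of all genes passed the adjusted threshold. With 4 libraries a genotype, SEs of 0.083 to 0.20 limit what can be detected.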
